A study of Mus musculus with 20 samples.

Results

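Immediate early genes are transcribed within minutes of a burst of neuronal firing, without new protein synthesis, and their RNA levels are used as a record of recent activity. Calcium that enters through NMDA receptors and voltage-gated channels acts through calmodulin-dependent kinases and MAP kinases on factors such as CREB and SRF that already sit at these genes. The products include transcription factors (the AP-1, EGR and NR4A families, Npas4, the Krüppel-like factors), proteins that act at synapses or are secreted (Arc, Homer1, Nptx2, Inhba), and brakes on the same signalling (the dual-specificity phosphatases). A named set of 40 such genes was read by gene symbol from the count tables of frontal cortex and hippocampus. All 40 were listed in both tables, of 17442 genes in the cortex table and 17586 in the hippocampus table, and all 40 passed the filter on low counts in every comparison.

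Total RNA came from dissected, flash-frozen brains of Ncs1-/- mice and Ncs1+/+ mice of the strain C57Bl6/J, with no treatment named. The protein lost, neuronal calcium sensor 1, binds calcium and acts on channels and receptors in neurons. The 20 libraries were 5 of Ncs1-/- hippocampus, 5 of Ncs1+/+ hippocampus, 5 of Ncs1-/- cortex and 5 of Ncs1+/+ cortex. The sources used here give neither the way the deletion was made nor the age of the mice nor the time between handling and freezing. Nor do the labels tie the libraries of a group to different mice, so each p-value below measures the spread between libraries, part of which may be technical. In bulk tissue, fewer cells that express a gene and less RNA of it per cell cannot be told apart.

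Depth was 16.6 to 34.6 M counts per library, and the median was 21.0 M counts. Levels below are in CPM, the counts of a gene per M counts of its library, after TMM scaling of all 20 libraries together. Ncs1 itself averaged 259 ± 3.33 CPM in Ncs1-/- cortex and 369 ± 18.1 CPM in Ncs1+/+ cortex (SD, n = 5 each), and 299 ± 21.6 CPM in Ncs1-/- hippocampus and 440 ± 17.6 CPM in Ncs1+/+ hippocampus (SD, n = 5 each). The genotypes did not overlap for it in either region, and much Ncs1 RNA remained in the Ncs1-/- libraries. Summed markers of dentate granule cells, a hippocampal type, reached 444 to 693 CPM in hippocampus libraries and 256 to 302 CPM in cortex libraries. Summed markers of the choroid plexus, which secretes cerebrospinal fluid, were above 100 CPM in 4 libraries, with 3607 CPM in Ncs1-/- hippocampus library 2, 405 CPM in Ncs1-/- hippocampus library 4, 2329 CPM in Ncs1+/+ hippocampus library 4 and 256 CPM in Ncs1-/- cortex library 1. Markers of striatal projection neurons were at 89.9 to 134 CPM in hippocampus libraries and 635 to 1210 CPM in cortex libraries. The cortex libraries carry another lane number in their labels than the hippocampus libraries, so region and lane cannot be told apart.

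Many activity-regulated promoters hold a cAMP response element, the site of CREB, whose core is TGACG. RefSeq promoter windows of build GRCm38.p6, from 250 bases before to 50 bases after the start of the gene, were matched for 31 of the 40 members. The windows below, written 5′ to 3′ on the strand of the gene, are those of Fos, Npas4 and Nr4a1, whose levels moved together across libraries, and of Jun, which moved little. Capitals mark TGACG on either strand. The Fos window lies at chr12:85473640-85473939 on the plus strand, the Npas4 window at chr19:4989922-4990221 on the minus strand, the Nr4a1 window at chr15:101266596-101266895 on the plus strand and the Jun window at chr4:95052173-95052472 on the minus strand.
Fos: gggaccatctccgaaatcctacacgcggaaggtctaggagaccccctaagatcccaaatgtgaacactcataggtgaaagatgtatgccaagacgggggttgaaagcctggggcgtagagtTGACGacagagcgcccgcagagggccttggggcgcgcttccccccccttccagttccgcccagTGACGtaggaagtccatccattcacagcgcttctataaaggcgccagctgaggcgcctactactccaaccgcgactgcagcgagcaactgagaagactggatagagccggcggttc
Npas4: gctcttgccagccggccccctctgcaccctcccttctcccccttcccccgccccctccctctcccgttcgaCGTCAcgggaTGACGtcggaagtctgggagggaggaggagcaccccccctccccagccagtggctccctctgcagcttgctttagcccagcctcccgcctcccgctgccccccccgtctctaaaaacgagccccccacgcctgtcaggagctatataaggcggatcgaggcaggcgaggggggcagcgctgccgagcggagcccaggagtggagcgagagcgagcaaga
Nr4a1: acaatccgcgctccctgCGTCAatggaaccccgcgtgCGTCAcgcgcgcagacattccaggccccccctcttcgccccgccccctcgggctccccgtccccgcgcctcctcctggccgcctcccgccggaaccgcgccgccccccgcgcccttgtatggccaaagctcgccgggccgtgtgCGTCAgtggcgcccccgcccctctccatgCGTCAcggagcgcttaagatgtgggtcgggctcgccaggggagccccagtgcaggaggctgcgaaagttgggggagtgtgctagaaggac
Jun: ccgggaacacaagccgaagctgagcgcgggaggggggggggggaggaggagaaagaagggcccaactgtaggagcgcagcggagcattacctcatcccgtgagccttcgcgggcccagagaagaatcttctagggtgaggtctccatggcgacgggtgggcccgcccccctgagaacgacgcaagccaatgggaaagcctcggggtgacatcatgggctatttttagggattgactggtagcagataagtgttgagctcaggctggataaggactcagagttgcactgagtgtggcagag
The TGACG core occurred 2 times in the Fos window, 2 times in the Npas4 window, 4 times in the Nr4a1 window and 0 times in the Jun window. These 4 windows do not stand for all members. The windows of Egr2 and Dusp6 held it 0 times too, and their levels in cortex had r of 0.96 and 0.95 with those of Fos. Medians of r for the members with and without TGACG are given below.

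Over the members, 19 of the 31 windows held TGACG on either strand, against 20.8% of all 32851 RefSeq windows of the same length. The full element TGACGTCA, which contains that core, was in 2 member windows, those of Dusp1 and Btg2, against 1.79% of all windows. The site of the EGR factors, searched as GCGNGGGCG on both strands, was in 10 member windows, among them Fosb, Nr4a1, Nr4a2, Klf2 and Klf4, against 5.55% of all windows. The CArG box, the site of SRF, was in 2, those of Dusp5 and Zfp36, against 1.63% of all windows. The AP-1 site TGANTCA was in 0 of the 31, against 7.81% of all windows. These matches describe the letters of one short window, and elements outside it were not searched.

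The level in every cortex library is given first for 6 members that are widely used as readouts of activity. Fos, the partner of Jun proteins in AP-1, was at 24.6, 34.9, 47.7, 24.4 and 62.0 CPM in Ncs1-/- cortex libraries 1 to 5, against 51.2, 38.3, 17.5, 11.9 and 26.0 CPM in Ncs1+/+ cortex libraries 1 to 5. Arc, which regulates AMPA receptor uptake at synapses, was at 145, 199.8, 316, 203 and 363 CPM in Ncs1-/- cortex, against 332, 227, 116, 98.4 and 259 CPM in Ncs1+/+ cortex. For both genes library 5 was the highest Ncs1-/- library, library 1 was the highest Ncs1+/+ library and library 4 the lowest, and the genotypes overlapped. Egr1, a zinc finger transcription factor, was at 338, 413, 553, 388 and 599 CPM in Ncs1-/- cortex, against 543, 453, 338, 209 and 492 CPM in Ncs1+/+ cortex. Npas4, a factor induced by calcium entry, was at 13.3, 12.8, 32.5, 11.97 and 21.8 CPM in Ncs1-/- cortex, against 24.1, 10.8, 4.64, 3.18 and 11.3 CPM in Ncs1+/+ cortex. The same Ncs1+/+ libraries stood at the ends, while library 3 was the highest Ncs1-/- library for Npas4. Junb, another AP-1 subunit, was at 39.7, 44.8, 65.8, 43.4 and 82.2 CPM in Ncs1-/- cortex, against 70.5, 53.0, 33.2, 25.4 and 44.0 CPM in Ncs1+/+ cortex. Nr4a1, an orphan nuclear receptor, was at 54.7, 68.6, 116, 79.1 and 123 CPM in Ncs1-/- cortex, against 121, 85.1, 43.0, 32.7 and 80.7 CPM in Ncs1+/+ cortex. None of these 6 members had groups that did not overlap.

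Between genotypes in cortex, 0 of the 40 members passed edgeR's quasi-likelihood test at an adjusted p of 0.05, where 4 of 14823 genes (0.027%) passed. An unadjusted p under 0.05 was found for 4 of 40 members, where 14.8% of all genes had one, and DESeq2 and limma-voom called 0 members. The log2 fold changes (Ncs1-/- over Ncs1+/+) were 0.43 for Fos (SE 0.34), 0.26 for Arc (SE 0.31), 0.17 for Egr1 (SE 0.22), 0.80 for Npas4 (SE 0.43), 0.29 for Junb (SE 0.25) and 0.29 for Nr4a1 (SE 0.31), with adjusted p-values of 0.399 to 0.728. The smallest p belonged to Klf4, a Krüppel-like factor, which was at 8.78, 12.8, 19.6, 12.5 and 16.1 CPM in Ncs1-/- cortex and at 12.4, 8.13, 7.04, 8.38 and 11.1 CPM in Ncs1+/+ cortex. Its log2 fold change was 0.58 (SE 0.20, adjusted p = 0.243). Nptx2, a secreted pentraxin that gathers AMPA receptors at excitatory synapses, was at 49.9, 42.6, 51.7, 51.3 and 50.5 CPM in Ncs1-/- cortex and at 84.7, 60.0, 55.2, 46.1 and 70.6 CPM in Ncs1+/+ cortex. Its log2 fold change was -0.36 (SE 0.13, adjusted p = 0.259), and 4 of the 5 Ncs1+/+ libraries lay above every Ncs1-/- library. Maff, a small basic leucine zipper factor, was at 1.51, 4.32, 1.90, 1.91 and 3.39 CPM in Ncs1-/- cortex and at 1.75, 0.52, 1.1997, 1.57 and 1.87 CPM in Ncs1+/+ cortex, with a log2 fold change of 0.93 (SE 0.34, adjusted p = 0.265). Atf3, a stress-induced factor of the ATF/CREB family, was at 0.52, 2.06, 1.002, 1.11 and 3.08 CPM in Ncs1-/- cortex and at 1.07, 1.03, 0.31, 0.64 and 0.83 CPM in Ncs1+/+ cortex, with a log2 fold change of 1.02 (SE 0.43, adjusted p = 0.306). Both were low in level, and the genotypes overlapped for both. Next by p came Nr4a3, an orphan receptor of the Nr4a1 family, at 0.47 (SE 0.23, adjusted p = 0.353). Btg2, an antiproliferative factor, was at 13.2, 13.5, 17.4, 12.9 and 23.8 CPM in Ncs1-/- cortex and at 16.3, 12.7, 10.5, 12.5 and 12.7 CPM in Ncs1+/+ cortex, with 0.32 (SE 0.16, adjusted p = 0.369).

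Of the 40 members, 30 had a cortex log2 fold change above 0, with a median of 0.17, where 50.6% of all genes were above 0 with a median of 0.00. By role, all 7 AP-1 members lay above 0 (median 0.29), with 3 of 4 EGR members (0.19), 2 of 3 NR4A members (0.29), 4 of 7 other transcription regulators (0.16), 4 of 7 synaptic and secreted effectors (0.02), 7 of 8 signalling brakes and kinases (0.12) and 3 of 4 growth arrest and mRNA decay genes (0.13). The groups did not overlap for 0 of 40 members, against 2.28% of all genes. The median depended on single libraries. It was 0.06 without Ncs1-/- library 5, 0.07 without Ncs1+/+ library 4, 0.11 without Ncs1+/+ library 3 and 0.30 without Ncs1+/+ library 1. Ncs1-/- cortex library 1, the one with 256 CPM of choroid plexus markers, was low for most members. Without it the median was 0.26 and 34 of 40 members were above 0, and the part of the choroid plexus RNA in their levels was not tested. All 9 excitatory neuron markers had cortex log2 fold changes below 0 (median -0.15), all 8 astrocyte markers did too (median -0.13), and all 10 striatal neuron markers had ones above 0 (median 0.21), as had the 5 choroid plexus markers that could be tested (median 0.84) and 7 of 8 oligodendrocyte markers (median 0.03). Of the meningeal fibroblast markers, 7 of 8 were above 0 (median 0.26), and of the microglia markers 7 of 8 were below 0 (median -0.09). No marker on these lists passed the adjusted threshold, and their part in the members' values was not tested.

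In hippocampus the same libraries stood at the ends for most of these 6 members. Fos was at 10.9, 9.25, 20.3, 10.3 and 24.9 CPM in Ncs1-/- hippocampus libraries 1 to 5, against 24.8, 12.7, 7.997, 6.06 and 13.4 CPM in Ncs1+/+ hippocampus libraries 1 to 5. Arc was at 98.2, 90.8, 179.6, 112 and 163 CPM in Ncs1-/- hippocampus, against 153, 112, 95.8, 82.2 and 126 CPM in Ncs1+/+ hippocampus. Libraries 3 and 5 were the highest of the Ncs1-/- group, and again library 1 was the highest and library 4 the lowest of the Ncs1+/+ group. Egr1 was at 168, 130.2, 207, 135 and 254 CPM in Ncs1-/- hippocampus, against 219, 166, 148, 99.7 and 165 CPM in Ncs1+/+ hippocampus. Npas4 was at 8.42, 2.94, 17.3, 7.07 and 9.86 CPM in Ncs1-/- hippocampus, against 10.7, 3.76, 3.60, 3.13 and 6.23 CPM in Ncs1+/+ hippocampus. Npas4 again peaked in Ncs1-/- library 3. Junb was at 45.4, 35.02, 57.7, 41.2 and 59.6 CPM in Ncs1-/- hippocampus, against 61.7, 47.4, 40.2, 33.5 and 39.8 CPM in Ncs1+/+ hippocampus. Nr4a1 was at 46.1, 44.1, 70.3, 48.6 and 77.4 CPM in Ncs1-/- hippocampus, against 70.1, 52.7, 43.0, 34.7 and 49.98 CPM in Ncs1+/+ hippocampus. The genotypes overlapped for all 6.

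**Figure D1:**
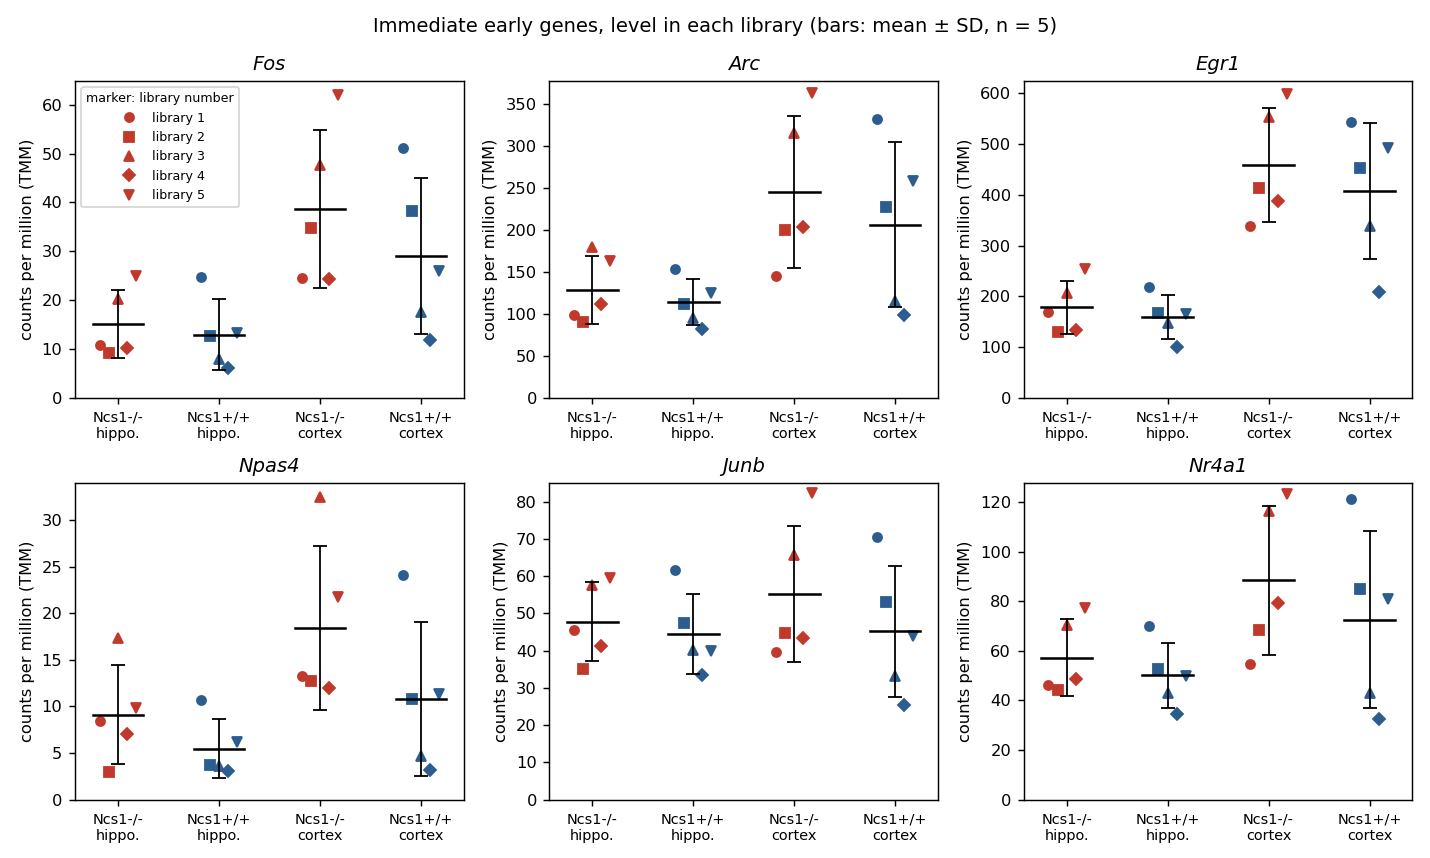
Level of 6 immediate early genes in each library, in CPM on a linear axis from 0, for Ncs1-/- hippocampus, Ncs1+/+ hippocampus, Ncs1-/- cortex and Ncs1+/+ cortex; marker shape gives the library number, and bars are the mean ± SD (n = 5). Ncs1+/+ library 1 and Ncs1-/- library 5 or 3 head their groups in both regions, and the genotypes overlap for every gene shown.

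Between genotypes in hippocampus, 0 of the 40 members passed the adjusted threshold, where 4 of 15042 genes (0.0266%) passed. An unadjusted p under 0.05 was found for 1 member, where 3.78% of all genes had one, and DESeq2 and limma-voom called 0 members. That member was Atf3, at 0.47, 0.74, 1.89, 0.97 and 3.70 CPM in Ncs1-/- hippocampus and at 0.68, 0.63, 0.61, 0.66 and 0.69 CPM in Ncs1+/+ hippocampus. Its log2 fold change was 1.27 (SE 0.50, adjusted p = 0.991). The wide spread lay in the Ncs1-/- group, where library 5 was the highest and library 1 the lowest of all 10. Nptx2, next by p among members other than the 6 readouts, was at 29.3, 22.1, 23.8, 29.0 and 22.4 CPM in Ncs1-/- hippocampus and at 41.3, 24.2, 33.2, 26.1 and 29.2 CPM in Ncs1+/+ hippocampus, with a log2 fold change of -0.27 (SE 0.14). Dusp6 was at 63.9, 58.6, 69.9, 61.8 and 81.0 CPM in Ncs1-/- hippocampus and at 65.1, 63.7, 61.6, 47.4 and 63.9 CPM in Ncs1+/+ hippocampus, with 0.16 (SE 0.10), and its lowest value of all 10 was in Ncs1+/+ library 4. Dusp6 is a phosphatase of ERK. Sik1, a kinase that restrains CREB coactivators, was at 12.6, 14.7, 20.1, 17.2 and 23.9 CPM in Ncs1-/- hippocampus and at 18.3, 13.6, 12.5, 14.4 and 15.8 CPM in Ncs1+/+ hippocampus, with 0.26 (SE 0.16). Gadd45g, a growth arrest and DNA damage protein, was at 9.63, 7.08, 8.52, 7.54 and 9.30 CPM in Ncs1-/- hippocampus and at 9.75, 8.43, 10.5, 9.80 and 8.80 CPM in Ncs1+/+ hippocampus, with -0.15 (SE 0.10), and Nr4a3 had 0.15 (SE 0.10). The adjusted p was 0.991 for each of these 5, and the genotypes overlapped for each. The log2 fold changes were 0.24 for Fos (SE 0.37), 0.19 for Arc (SE 0.21), 0.18 for Egr1 (SE 0.21), 0.75 for Npas4 (SE 0.42), 0.12 for Junb (SE 0.17) and 0.21 for Nr4a1 (SE 0.20), each with an adjusted p of 0.991.

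Of the 40 members, 34 had a hippocampus log2 fold change above 0, with a median of 0.10, where 53.1% of all genes were above 0 with a median of 0.01. The members below 0 were Pim1, Nptx2, Gadd45g, Zfp36, Fosb and Inhba. The median was 0.20 without Ncs1+/+ library 1, 0.05 without Ncs1+/+ library 4, 0.17 without Ncs1-/- library 2 and 0.16 without Ncs1-/- library 4. Without Ncs1-/- hippocampus library 5, 21 of 40 members were above 0, the median was 0.01, and the sign for Fos turned, to -0.03. The groups did not overlap for 0 of 40 members, against 0.452% of all genes. Without the 3 hippocampus libraries rich in choroid plexus markers, 33 of 40 were above 0 and the median was 0.18, with 0 members past the threshold. All 9 excitatory neuron markers and all 8 astrocyte markers had hippocampus log2 fold changes below 0 (medians -0.10 and -0.11). All 5 red blood cell markers lay below 0 too (median -0.20), while all 8 choroid plexus markers (median 0.70) and all 8 oligodendrocyte markers (median 0.06) lay above 0. Of the interneuron markers and of the microglia markers, 7 of 8 lay below 0 (medians -0.12 and -0.06). Of the glucocorticoid response genes, 13 of 15 did (median -0.19). None of these markers and genes passed the threshold, and their part in the members' values was not tested. The interaction of genotype and region was past the threshold for 0 members and for 0 of 15310 genes (0%). At an unadjusted p under 0.05 it counted 0 members and 214 genes (1.4%), and DESeq2 called 1 gene and 0 members. The member with the smallest interaction p was Nr4a3, whose hippocampus fold change was lower by 0.33 on the log2 scale than its cortex one (SE 0.28, unadjusted p = 0.257).

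**Figure D2:**
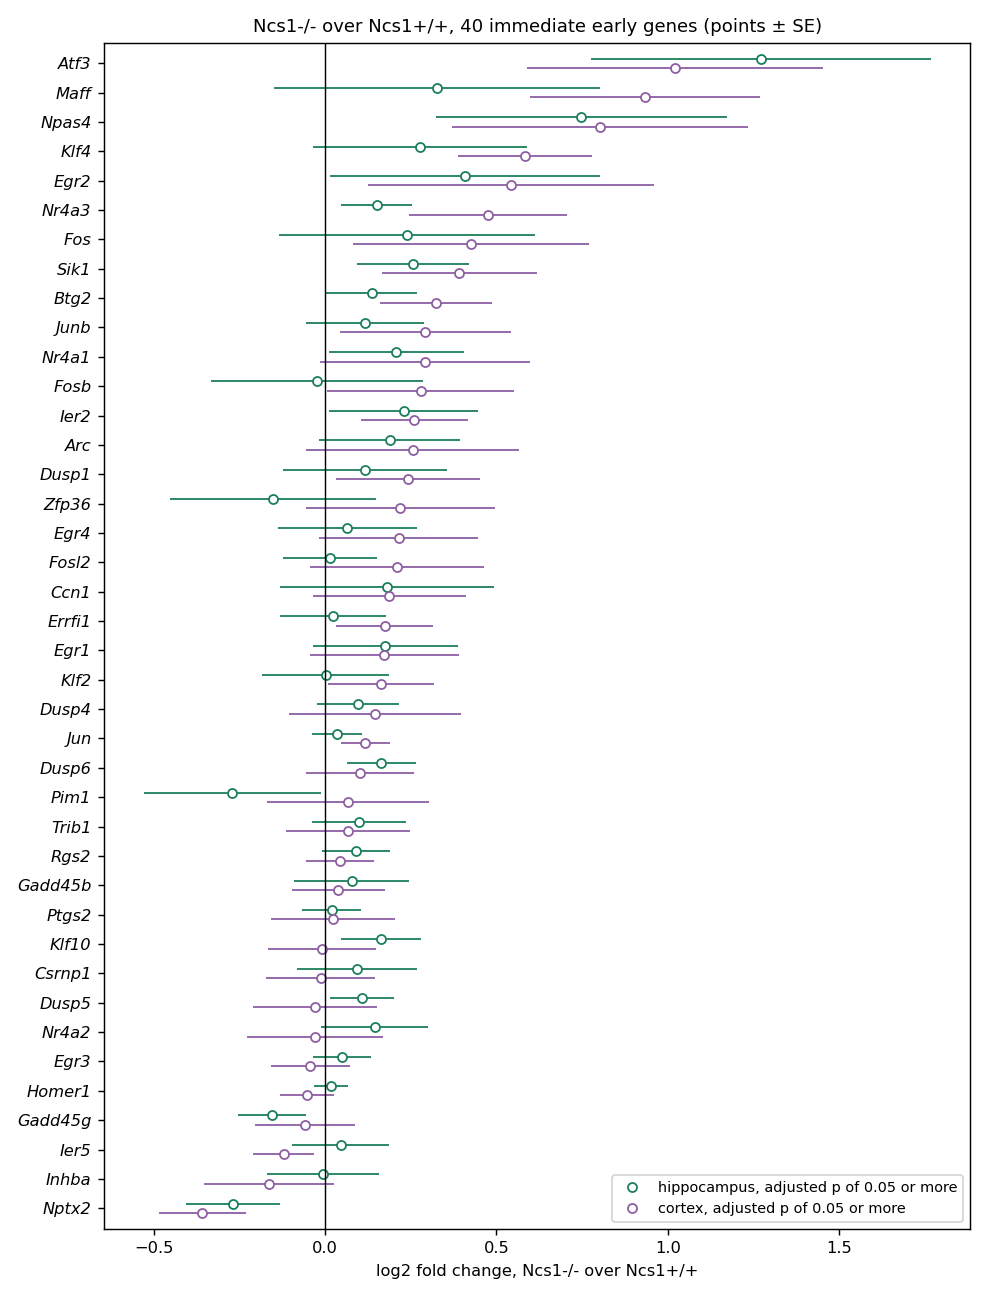
Log2 fold change of Ncs1-/- over Ncs1+/+ for the 40 members, in hippocampus and cortex, with points ± SE from edgeR fits of 5 libraries per group; members run from the highest to the lowest cortex value. No point is past an adjusted p of 0.05, 34 hippocampus points and 30 cortex points lie above 0, and Nptx2 is lowest in cortex at -0.36.

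Between regions, members differed in both directions, and so did many of all genes. Read per length of the gene's exons, Egr1 stood highest in cortex, with means of 102 CPM per kb in Ncs1-/- cortex and 90.7 CPM per kb in Ncs1+/+ cortex. Arc followed with 80.3 CPM per kb in Ncs1-/- cortex and 67.5 CPM per kb in Ncs1+/+ cortex, and then Egr3 with 64.2 CPM per kb in Ncs1-/- cortex and 66.2 CPM per kb in Ncs1+/+ cortex. In hippocampus Arc stood highest, with 42.1 CPM per kb in Ncs1-/- hippocampus and 37.2 CPM per kb in Ncs1+/+ hippocampus, followed closely by Egr1, Jun and Egr3 at 35.6 to 39.9 CPM per kb in either genotype. Atf3, Maff, Pim1 and Zfp36 were among the 5 lowest per kb in each group, at 0.30 to 1.33 CPM per kb.

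In Ncs1-/- mice, 26 of the 40 members differed between hippocampus and cortex, 8 of them higher and 18 lower in hippocampus, where 38.8% of 15032 genes differed (19.2% higher and 19.6% lower). In Ncs1+/+ mice, 20 of 40 differed, 5 higher and 15 lower, where 39.5% of 14849 genes differed (18.8% higher and 20.7% lower). The median log2 fold change (hippocampus over cortex) of the members was -0.52 in Ncs1-/- mice and -0.51 in Ncs1+/+ mice, and that of all genes was 0.01 in each. Members that passed in both genotypes numbered 17, of which 5 were higher and 12 lower in each. The same-numbered Ncs1+/+ libraries of the regions deviated together (r from 0.11 to 0.41, against at most 0.12 for unlike numbers). With the number as a block 31 of 40 members passed in Ncs1+/+ mice, 8 higher and 23 lower. The share of all genes that passed with the block is not given here, so this count cannot be set against the 39.5%. Of the members named below, Fosb, Egr4, Nr4a1, Nr4a2, Npas4, Ptgs2 and Pim1 passed in Ncs1+/+ mice with the block and not without it, and their adjusted p with the block is given beside the value. The higher count in Ncs1+/+ mice was 10 without Ncs1+/+ cortex library 1. Without the libraries rich in choroid plexus markers, 21 members passed in Ncs1-/- mice and 18 in Ncs1+/+ mice, where Fos and Arc no longer did. The share of all genes that passed without those libraries is not given here either. The regions did not overlap for 4 members higher and 10 lower in Ncs1-/- mice, against 29.6% of all genes, and for 4 higher and 6 lower in Ncs1+/+ mice, against 29.4%. The striatal markers differed in the same direction as the lower members, by a median of -3.48 in Ncs1-/- mice and -3.42 in Ncs1+/+ mice on the log2 scale, and their part in the difference was not tested.

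Of the 4 EGR factors, all passed as lower in hippocampus in Ncs1-/- mice and 3 did in Ncs1+/+ mice. Egr1 averaged 179 ± 52.1 CPM in hippocampus and 458 ± 112 CPM in cortex of Ncs1-/- mice (log2 fold change -1.35, SE 0.20, adjusted p = 0.000102), and 159.7 ± 42.9 CPM in hippocampus and 407 ± 134 CPM in cortex of Ncs1+/+ mice (-1.36, SE 0.24, adjusted p = 0.000592; SD, n = 5 each). The libraries above show no overlap between regions in Ncs1-/- mice and an overlap in Ncs1+/+ mice, where hippocampus library 1 (219 CPM) stood above cortex library 4 (209 CPM). Egr2 had log2 fold changes of -1.83 (SE 0.41, adjusted p = 0.00294) in Ncs1-/- mice and -1.72 (SE 0.43, adjusted p = 0.00682) in Ncs1+/+ mice, the lowest of the members. Egr3 was at 152, 143, 184, 157 and 174 CPM in Ncs1-/- hippocampus and 248, 266, 293, 282 and 324 CPM in Ncs1-/- cortex, a log2 fold change of -0.80 (SE 0.08, adjusted p = 3.12e-06), and it was lower by 0.90 on the log2 scale in Ncs1+/+ mice (SE 0.12, adjusted p = 7.89e-05). Egr4 passed in Ncs1-/- mice at -0.71 (SE 0.21, adjusted p = 0.0144), though not without the choroid-rich libraries, and had -0.57 in Ncs1+/+ mice (SE 0.24, adjusted p = 0.0758; adjusted p = 0.000246 with the block).

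The AP-1 subunits went apart. Jun was at 107, 107, 135, 124 and 113 CPM in Ncs1-/- hippocampus, against 51.2, 55.9, 52.2, 54.9 and 64.8 CPM in Ncs1-/- cortex, and at 111, 127, 103, 118 and 117 CPM in Ncs1+/+ hippocampus, against 55.9, 54.4, 44.7, 51.1 and 51.8 CPM in Ncs1+/+ cortex. Every hippocampus library lay above every cortex library for Jun, with log2 fold changes of 1.07 in Ncs1-/- mice (SE 0.08, adjusted p = 1.31e-07) and 1.15 in Ncs1+/+ mice (SE 0.07, adjusted p = 4.23e-08). Fos was lower in hippocampus by 1.35 on the log2 scale in Ncs1-/- mice (SE 0.32, adjusted p = 0.00417) and by 1.17 in Ncs1+/+ mice (SE 0.41, adjusted p = 0.0375), where DESeq2 did not call it. Fosb, a Fos paralogue, passed in Ncs1-/- mice at -0.88 (SE 0.27, adjusted p = 0.0185) and had -0.58 in Ncs1+/+ mice (SE 0.32, adjusted p = 0.167; adjusted p = 2.38e-05 with the block). Junb had -0.20 in Ncs1-/- mice (SE 0.20) and -0.03 in Ncs1+/+ mice (SE 0.24), and neither passed.

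The NR4A receptors were split as well. Nr4a3 was at 154, 127, 179, 153 and 186 CPM in Ncs1-/- hippocampus, against 51.2, 80.5, 89.9, 73.7 and 101 CPM in Ncs1-/- cortex, and at 163, 146, 131, 124 and 162 CPM in Ncs1+/+ hippocampus, against 84.9, 60.0, 47.1, 28.3 and 66.5 CPM in Ncs1+/+ cortex. The regions did not overlap for it in either genotype, and its log2 fold changes were 1.01 in Ncs1-/- mice (SE 0.15, adjusted p = 0.00012) and 1.33 in Ncs1+/+ mice (SE 0.21, adjusted p = 0.000253). Nr4a2, a receptor also needed by dopamine neurons, passed in Ncs1-/- mice at 0.61 (SE 0.16, adjusted p = 0.00861) and had 0.43 in Ncs1+/+ mice (SE 0.20, adjusted p = 0.106; adjusted p = 0.00238 with the block). Nr4a1 went the other way, at -0.62 in Ncs1-/- mice (SE 0.22, adjusted p = 0.0415; not called by DESeq2, by limma-voom or without the choroid-rich libraries) and -0.54 in Ncs1+/+ mice (SE 0.30, adjusted p = 0.176; adjusted p = 0.0158 with the block).

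Among the effectors at synapses, Homer1, a postsynaptic scaffold, was lower in hippocampus in all libraries. It was at 173, 170.3, 199, 178 and 190.5 CPM in Ncs1-/- hippocampus, against 279, 309, 320.0, 337 and 345 CPM in Ncs1-/- cortex, and at 189, 175.7, 175.5, 176 and 191.5 CPM in Ncs1+/+ hippocampus, against 335, 316, 341, 274 and 386 CPM in Ncs1+/+ cortex. Its log2 fold changes were -0.80 (SE 0.06, adjusted p = 2.93e-07) in Ncs1-/- mice and -0.87 (SE 0.08, adjusted p = 1.16e-06) in Ncs1+/+ mice. The tables count whole genes, so the short activity-induced Homer1 form was not read apart from the long forms. Nptx2 was lower by 0.96 on the log2 scale in Ncs1-/- mice (SE 0.09, adjusted p = 2.13e-06) and by 1.05 in Ncs1+/+ mice (SE 0.17, adjusted p = 0.000228). Rgs2, which shortens G protein signalling, was lower by 0.71 in Ncs1-/- mice (SE 0.09, adjusted p = 4.3e-05) and by 0.76 in Ncs1+/+ mice (SE 0.11, adjusted p = 8.11e-05). Arc was lower by 0.93 in Ncs1-/- mice (SE 0.25, adjusted p = 0.00925) and by 0.86 in Ncs1+/+ mice (SE 0.29, adjusted p = 0.0323), where limma-voom did not call it. Ptgs2, the inducible cyclooxygenase, was higher in hippocampus of Ncs1-/- mice at 0.41 (SE 0.11, adjusted p = 0.0114), and had 0.41 in Ncs1+/+ mice (SE 0.17, adjusted p = 0.0673; adjusted p = 0.0263 with the block).

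The remaining regulators and signalling brakes held members of either direction. Ier5, an early response factor, was at 50.4, 53.1, 49.0, 48.7 and 51.8 CPM in Ncs1-/- hippocampus, against 101, 97.4, 105, 96.8 and 119 CPM in Ncs1-/- cortex, the smallest p of the members in that genotype (log2 fold change -1.04, SE 0.06, adjusted p = 1.59e-08). In Ncs1+/+ mice it was lower by 1.21 (SE 0.16, adjusted p = 4.93e-05), and the regions did not overlap in either genotype. Trib1, a pseudokinase, had -1.04 in Ncs1-/- mice (SE 0.15, adjusted p = 0.000119) and -1.07 in Ncs1+/+ mice (SE 0.18, adjusted p = 0.00031). Pim1, a serine/threonine kinase, passed in Ncs1-/- mice at -1.11 (SE 0.17, adjusted p = 0.000183) and had -0.78 in Ncs1+/+ mice (SE 0.31, adjusted p = 0.0611; adjusted p = 0.00156 with the block). Npas4 passed in Ncs1-/- mice at -1.02 (SE 0.38, adjusted p = 0.0493), but not with DESeq2 or without the choroid-rich libraries, and had -0.98 in Ncs1+/+ mice (SE 0.49, adjusted p = 0.136; adjusted p = 0.00319 with the block). The phosphatases divided. Dusp1, which acts on p38 and JNK, was lower in hippocampus at -1.12 in Ncs1-/- mice (SE 0.22, adjusted p = 0.00118) and -1.003 in Ncs1+/+ mice (SE 0.23, adjusted p = 0.00388). Dusp5, which acts on nuclear ERK, was higher at 1.005 in Ncs1-/- mice (SE 0.14, adjusted p = 7.36e-05) and 0.86 in Ncs1+/+ mice (SE 0.15, adjusted p = 0.000394), with no overlap between regions. Dusp4 was higher in Ncs1-/- mice at 0.47 (SE 0.15, adjusted p = 0.0235), a call lost at an adjusted p of 0.1 without the choroid-rich libraries, of 0.0523 without Ncs1-/- hippocampus library 3 and just above the threshold without Ncs1-/- cortex library 2. Gadd45g was higher at 0.53 (SE 0.13, adjusted p = 0.00484) in Ncs1-/- mice and 0.62 (SE 0.12, adjusted p = 0.00146) in Ncs1+/+ mice, and Errfi1, a feedback inhibitor of the EGF receptor, at 0.49 in Ncs1-/- mice (SE 0.16, adjusted p = 0.0286) and 0.64 in Ncs1+/+ mice (SE 0.13, adjusted p = 0.00164). The Errfi1 call in Ncs1-/- mice was lost without hippocampus library 5 and without cortex library 1, 3 or 4, at adjusted p-values of 0.0551 to 0.0724.

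**Figure D3:**
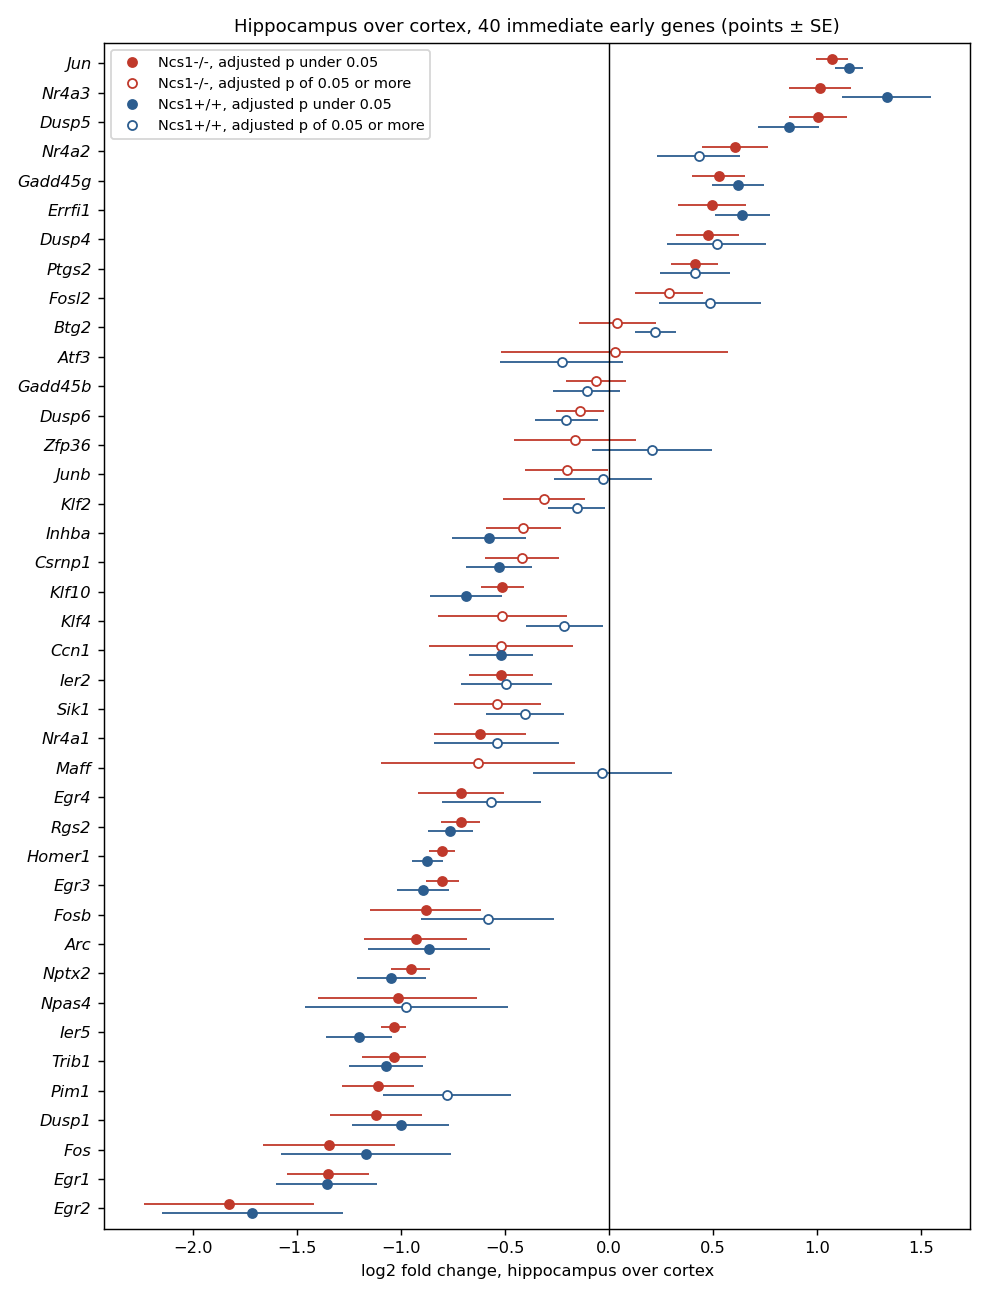
Log2 fold change of hippocampus over cortex for the 40 members, in Ncs1-/- and Ncs1+/+ mice, with points ± SE from edgeR fits of 5 libraries per group; filled points have an adjusted p under 0.05. Jun, Nr4a3 and Dusp5 lie near 1 in both genotypes and Egr2 and Egr1 are lowest, with Egr2 at -1.83 and -1.72.

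Within groups the members varied more than most genes. The pooled SD of log2 levels within groups had a median over the members of 0.30 in hippocampus and 0.39 in cortex, where the median of all genes tested was 0.14 in hippocampus and 0.12 in cortex. It was above the median of all genes for 37 of 40 members in hippocampus and for 40 of 40 in cortex. The most variable were Npas4 (0.82), Atf3 (0.77), Maff (0.77), Egr2 (0.74) and Fos (0.71) in hippocampus, and Egr2 (0.93), Npas4 (0.91), Atf3 (0.78) and Fos (0.73) in cortex. Jun was the least variable in cortex at 0.13, and Homer1 was in hippocampus at 0.07.

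The same libraries were high or low for many members. As a summary, the deviation of each member's log2 level from the mean of its region was taken in each library, and its median over the 40 members was read. In hippocampus it was -0.11, -0.24, 0.25, -0.03 and 0.40 in Ncs1-/- libraries 1 to 5, and 0.30, -0.07, -0.17, -0.26 and 0.06 in Ncs1+/+ libraries 1 to 5. In cortex it was -0.28, 0.04, 0.25, -0.04 and 0.45 in Ncs1-/- libraries 1 to 5, and 0.38, -0.01, -0.30, -0.45 and 0.12 in Ncs1+/+ libraries 1 to 5. The genotypes overlapped in both regions. Ncs1-/- library 5 held the highest level of 20 members in hippocampus and of 18 in cortex, and Ncs1+/+ library 1 that of 10 and 13. Ncs1+/+ library 4 held the lowest level of 12 members in hippocampus and of 22 in cortex. Ncs1-/- library 5 was the deepest of the hippocampus libraries (34.6 M counts) and the shallowest of the cortex libraries (16.6 M counts), and the part of depth in these levels was not tested. Of the libraries rich in choroid plexus markers, Ncs1-/- hippocampus library 2, Ncs1+/+ hippocampus library 4 and Ncs1-/- cortex library 1 were low for the members and Ncs1-/- hippocampus library 4 was near the middle, and the part of that RNA in the low levels was not tested.

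**Figure D4:**
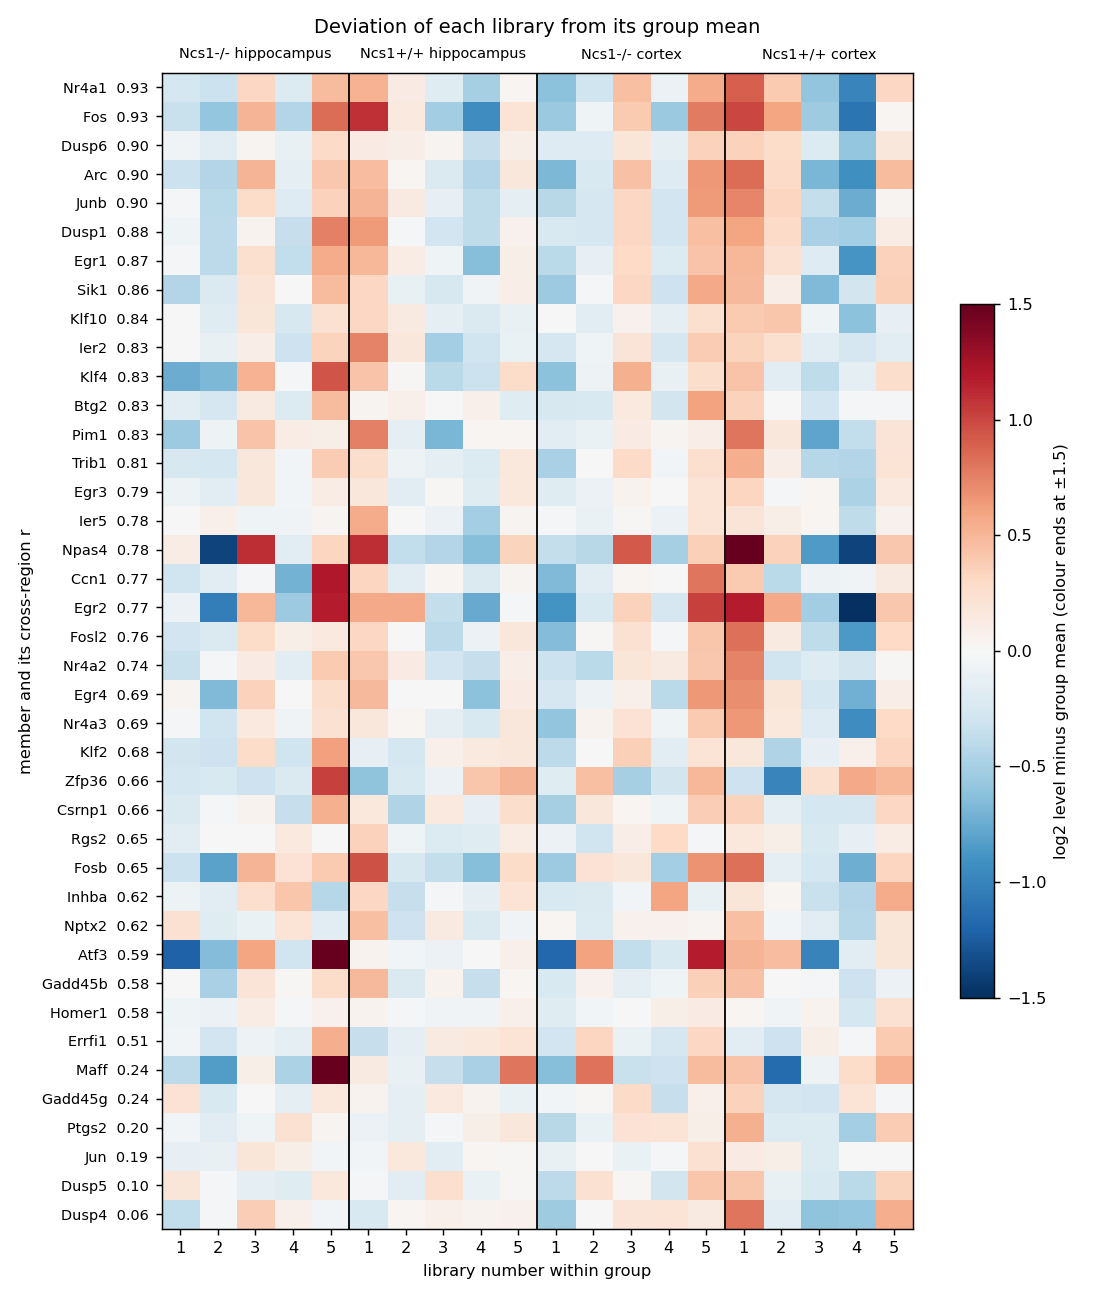
Deviation of each library from its group mean, on the log2 scale, for the 40 members (rows, with their correlation between regions) and the 20 libraries (columns, by group and library number); red is above and blue below the group mean. Ncs1-/- libraries 3 and 5 and Ncs1+/+ library 1 are red, and Ncs1+/+ library 4 blue, for most of the upper rows in both regions, while Jun, Dusp5 and Dusp4 at the bottom have r of 0.19, 0.10 and 0.06.

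Single members were then compared between the hippocampus and cortex libraries that carry the same genotype and number. The labels do not say whether a number marks one mouse. Deviations from the group means were correlated over the 10 same-numbered pairs, with an exact permutation test of the numbers within genotype (two-sided, 14400 arrangements), for 14613 genes. The members' Pearson r had a median of 0.75, with a range of 0.06 to 0.93, where the median of all genes was 0.24. All 40 members had r above 0, as did 71.8% of all genes, and 34 had r above 0.5, as did 23.5% of all genes. An unadjusted p under 0.05 was found for 25 of 40 members, where 10.5% of all genes had one. No member and none of the 14613 genes (0.0%) passed after adjustment over all genes. The smallest p the permutations can give is 6.94e-05, so that 21 genes at that value would have been needed for any to pass, and the smallest adjusted p was 0.28. Members of one library share its dissection, depth and RNA, so they are not independent of each other.

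The member with the smallest p was Nr4a1, with r = 0.93 and Spearman's rho = 0.94 over the 10 pairs (exact permutation p = 0.000347, adjusted p = 0.28, and r = 0.88 without the 2 pairs farthest from the median of the cortex values). Dusp1 had r = 0.88 and rho = 0.87 (exact permutation p = 0.000694, r = 0.85 without 2 pairs), and Dusp6 had r = 0.90 and rho = 0.88 (exact permutation p = 0.000764, r = 0.73 without 2 pairs). Dusp1 had its 2 farthest pairs in Ncs1-/- pair 5 and Ncs1+/+ pair 1, and Dusp6 in Ncs1-/- pair 5 and Ncs1+/+ pair 4. Arc had r = 0.90 and rho = 0.88 (exact permutation p = 0.000903, r = 0.85 without 2 pairs), and Klf10, a TGF-beta-inducible Krüppel-like factor, had r = 0.84 and rho = 0.88 (exact permutation p = 0.000972, r = 0.95 without 2 pairs). Ier2, an early response nuclear protein, had r = 0.83 and rho = 0.76 (exact permutation p = 0.00153). Without Ncs1-/- pair 5 and Ncs1+/+ pair 1 its r was 0.74 and the exact permutation p over the remaining 8 pairs 0.0729. The adjusted p was 0.28 for each of these 6. Fos had r = 0.93 and rho = 0.85 (exact permutation p = 0.00174, adjusted p = 0.281). Within a genotype there are 5 pairs, too few for a correlation of its own.

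By role, the median r was 0.65 for the AP-1 members, 0.78 for the EGR factors, 0.74 for the NR4A receptors, 0.79 for the other transcription regulators, 0.62 for the synaptic and secreted effectors, 0.82 for the signalling brakes and kinases and 0.62 for the growth arrest and mRNA decay genes. The lowest were Dusp4 (0.06), Dusp5 (0.10), Jun (0.19), Ptgs2 (0.20), Gadd45g (0.24) and Maff (0.24). Of these 6, all but Maff were among the 8 members that were higher in hippocampus of Ncs1-/- mice. The low values rested partly on single pairs. Without the 2 pairs farthest from the median of a member's cortex values, r was 0.54 for Dusp4 and 0.63 for Ptgs2. It was -0.10 for Dusp5, -0.08 for Jun, -0.05 for Gadd45g and 0.21 for Maff. The role medians were then 0.29 (growth arrest and mRNA decay genes) to 0.75 (EGR factors), with 0.34 for the AP-1 members. Leaving out the 4 pairs that hold a choroid-rich library left a median r of 0.76 over 6 pairs. Of the Ncs1-/- pairs, only numbers 3 and 5 remained. Their deviations from their own mean are equal and opposite by arithmetic, so this value is no check on the part of choroid plexus RNA.

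**Figure D5:**
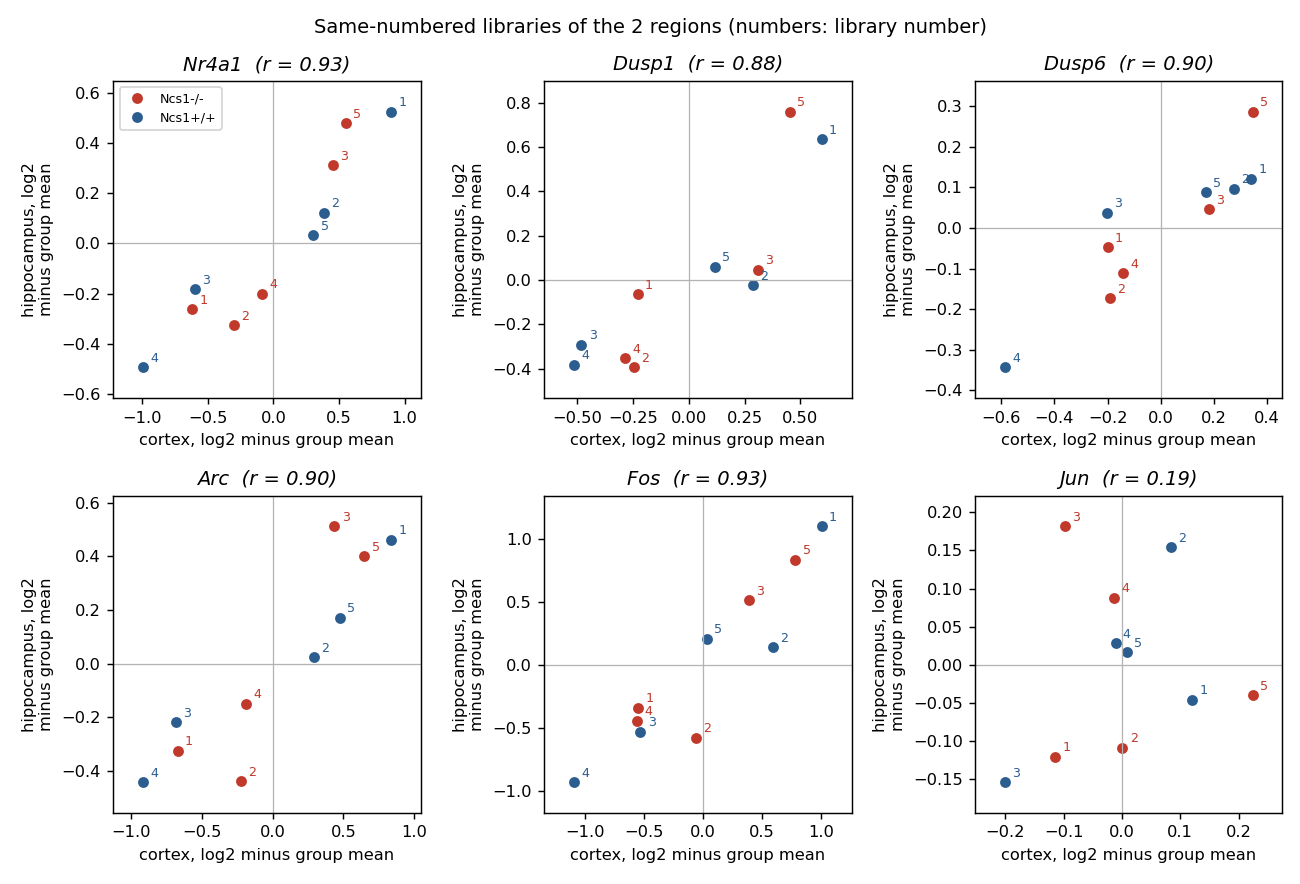
Deviation from the group mean on the log2 scale in hippocampus (vertical) against cortex (horizontal) for the 10 same-numbered pairs, with Ncs1-/- and Ncs1+/+ in separate colours and the library number beside each point, for 4 members with the smallest p, Fos and Jun. The points of Nr4a1, Dusp1, Dusp6, Arc and Fos run from Ncs1+/+ pair 4 or 3 up to pairs 5 of Ncs1-/- and 1 of Ncs1+/+, while those of Jun (r = 0.19) are scattered.

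Within each region, the other 39 members were compared with Fos over the 10 libraries, again as deviations from group means. In hippocampus the median r was 0.77, where the median of 15041 genes was -0.02, and 25 of 39 members had an unadjusted p under 0.05, where 6.58% of all genes had one. In cortex the median r was 0.80, where the median of 14822 genes was -0.01, and 26 of 39 members had an unadjusted p under 0.05, where 5.01% of all genes had one. No gene passed after adjustment in either region (0.0%). Nr4a1 was nearest to Fos in hippocampus (r = 0.99, rho = 0.94), followed by Egr1 (r = 0.95, rho = 0.96), Arc (r = 0.945, rho = 0.93), Junb (r = 0.93, rho = 0.89) and Dusp1 (r = 0.93, rho = 0.95), with exact permutation p-values of 6.94e-05 to 0.000764 and adjusted p-values of 0.261 to 0.522. In cortex Junb was nearest (r = 0.98, rho = 0.96), followed by Egr4 (r = 0.97, rho = 0.98), Egr2 (r = 0.96, rho = 0.95), Dusp1 (r = 0.96, rho = 0.93) and Dusp6 (r = 0.95, rho = 0.90), with exact permutation p-values of 6.94e-05 to 0.000278 and adjusted p-values of 0.221 to 0.242. Without the 2 libraries farthest from the median of Fos, these 10 values of r were 0.85 to 0.97.

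The members least like Fos were Ptgs2 (r = -0.18), Dusp4 (r = -0.06) and Dusp5 (r = 0.02) in hippocampus, and Zfp36 (r = -0.37), Maff (r = 0.06) and Errfi1 (r = 0.07) in cortex. Zfp36 encodes tristetraprolin, which speeds the decay of AU-rich mRNAs. Dusp5 had r = 0.80 with Fos in cortex, and the difference between regions was not tested. Among the members with a promoter window, the 18 with TGACG other than Fos had a median r with Fos of 0.815 in hippocampus and 0.73 in cortex, and the 12 without it had 0.685 in hippocampus and 0.71 in cortex. The ranges of both sets overlapped widely.

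Genes were also ranked by the lower of their 2 correlations with Fos, among 11246 genes with at least 5 CPM in both regions. Of the first 20, 11 were members, led by Nr4a1, Junb, Arc, Dusp1 and Egr1. The 5 genes outside the set that came first were Midn (lower r = 0.90), Nab2 (0.88), Frmd6 (0.87), Chrm4 (0.86) and Erf (0.84). Midn encodes midnolin, Nab2 a corepressor that binds EGR proteins, Chrm4 a muscarinic acetylcholine receptor and Erf a repressor of the ETS family. Likeness here is a description over 10 libraries per region, and an adjusted p was above 0.05 for each.

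Genes that act before and after the immediate early wave were read from lists. Of 41 genes of the signalling that leads to them, such as calcium channels, kinases and CREB coactivators, 0 passed between genotypes in either region, with median log2 fold changes of 0.02 in hippocampus and 0.01 in cortex. The smallest p belonged to Cacna1d, an L-type calcium channel subunit, in hippocampus (0.30, SE 0.11, adjusted p = 0.991) and to Ep300, a histone acetyltransferase, in cortex (0.24, SE 0.05, adjusted p = 0.19). Of 25 tested genes that follow activity later, 0 passed between genotypes, with medians of -0.0012 in hippocampus and 0.03 in cortex. The smallest p among these belonged to Baz1a in hippocampus (0.35, SE 0.20, adjusted p = 0.991) and to Nrn1, a secreted protein of neurites, in cortex (-0.27, SE 0.06, adjusted p = 0.19). Between regions, 12 of these 25 were lower and 4 higher in hippocampus of Ncs1-/- mice, where 19.6% of all genes were lower and 19.2% higher. In Ncs1+/+ mice 12 were lower and 2 higher, where 20.7% of all genes were lower and 18.8% higher. The smallest p belonged to Penk, the enkephalin precursor, at -3.19 in Ncs1-/- mice and -3.05 in Ncs1+/+ mice. Penk is also one of the striatal projection neuron markers, whose medians were -3.48 in Ncs1-/- mice and -3.42 in Ncs1+/+ mice. The part of striatal tissue in its difference was not tested. Over same-numbered pairs the delayed genes had a median r of 0.55 and the upstream genes one of 0.32.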

How the data were processed

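RNA-seq of 20 libraries was read as 1 table per region. The authors deposited expected counts, unscaled for depth: between 22.6% and 27.3% of a library's values were not whole. STAR 2.7.3a, Partek and the build mm10 are named, per the submitters' processing notes. The sources used here name no annotation, strand setting or filter, and Inhba overlaps a gene on the other strand. Groups and replicate numbers came from the sample titles. The lowest chi-square per degree of freedom between libraries of a group was 3.55, so no 2 libraries were counted as 1.

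Expected counts were rounded and fitted with edgeR 4.0.16 in R 4.3.3 (filterByExpr, TMM, quasi-likelihood test, Benjamini-Hochberg adjustment over all genes, threshold 0.05), per region for genotypes, per genotype for regions, and over all 20 libraries for the interaction. The standard error is the log2 fold change over the square root of F. Correlations used log2 levels (prior count 2) scaled within each table. Of the same-numbered libraries of the 2 regions, all 5 Ncs1+/+ pairs deviated together (r from 0.11 to 0.41). Among the Ncs1-/- pairs, 3 of 5 had r over 0.1 (r from -0.16 to 0.20, against at most 0.37 for unlike numbers). In 3 of 5 the hippocampus library deviated most like the cortex library of its own number. The 0.37 was between hippocampus library 2 and cortex library 1, both rich in choroid plexus markers. The part of that RNA in it was not tested. Only the Ncs1+/+ numbers were thus read as a sign of paired samples. That sign is weak, as hippocampus libraries of different genotypes, which cannot share a mouse, reached r of up to 0.44. The main region tests used no pairing, and the number was a block in an alternative run. The correlations between same-numbered libraries used the pairs of both genotypes, and for Ncs1-/- mice that pairing was taken from the labels.

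The members and gene lists were chosen with earlier results of these data known. Named were Ncs1, the 6 readouts, the 6 other members with the smallest p per genotype comparison, up to 8 members per direction between regions, 6 members between same-numbered pairs, the 5 highest and 3 lowest correlations with Fos, 5 genes outside the set, and the gene with the smallest p of other lists. The result of 1 such gene is not reported here. Members named beyond that were chosen after their values were seen. Exonic lengths came from GENCODE M21. Alternatives were other scaling and filters, DESeq2 1.42.0, limma-voom (limma 3.58.1), a replicate block, each library left out, Spearman's rho and a prior count of 0.5, and, chosen after the data were seen, leaving out libraries rich in choroid plexus markers. Scripts were tested on simulated data. Counting error is small at this depth for all but the lowest members, and the spread between libraries sets the precision.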

Additional observations from a re-analysis of the deposited data

Results flagged for a closer look

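Within the groups of 5 libraries, each member's level was checked for a single library far from the others (gap to the nearest over the whole range, Dixon's limit). Of 160 checks, 9 were past the limit, where chance flags about 1 in 20 groups, or 8 of 160. In Ncs1-/- hippocampus library 5, Maff was at 4.18 CPM (0.70 to 1.43 CPM in the other 4 libraries), Ccn1 at 8.41 CPM (2.20 to 3.61), Errfi1 at 93.2 CPM (52.1 to 61.8) and Zfp36 at 7.70 CPM (3.06 to 3.25). In Ncs1+/+ hippocampus, Dusp4 was at 14.2 CPM in library 1 (16.9 to 17.6 in the others) and Dusp6 at 47.4 CPM in library 4 (61.6 to 65.1). In Ncs1-/- cortex, Nptx2 was at 42.6 CPM in library 2 (49.9 to 51.7) and Inhba at 36.5 CPM in library 4 (20.8 to 23.7). In Ncs1+/+ cortex, Nr4a2 was at 88.7 CPM in library 1 (42.8 to 53.3).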

How the results depend on the processing

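No member passed between genotypes or for the interaction under any alternative run. None passed in the correlations, but leaving out pairs or libraries raises the smallest p that the permutations can give. Those runs could hardly have called a gene after adjustment, so the absence of calls in them is no check. Counts over all genes moved: DESeq2 called 169 genes in cortex and 1 for the interaction, leaving out single libraries gave 4 to 563 genes in cortex (563 without Ncs1+/+ library 5), and 0 genes passed in hippocampus without choroid-rich libraries. Leaving out single libraries gave 21 to 36 members above 0 in hippocampus, log2 fold changes of -0.027 (without Ncs1-/- library 5) to 0.60 for Fos there, 0 or 1 gene for the interaction (1 without Ncs1-/- cortex library 5), and 5 to 10 members higher in Ncs1+/+ mice between regions. With the replicate block, 31 members passed between regions in Ncs1+/+ mice, 8 higher and 23 lower, and 34 in Ncs1-/- mice, where 3 of 5 numbers had r over 0.1. The shares of all genes that passed with the block are not given here, so these counts have no background beside them. The block changed no member's call between genotypes, where 3 of 5 hippocampus numbers and 1 of 5 cortex numbers had r over 0.1.

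Between same-numbered pairs the members' median r was 0.70 with Spearman's rho and 0.67 to 0.83 with a pair left out, and 7 members had an unadjusted p under 0.05 over the 6 pairs without a choroid-rich library. With Fos it was 0.72 to 0.80 in hippocampus and 0.70 to 0.85 in cortex with a library left out. Without the 2 libraries farthest from the median of Fos it was 0.67 in hippocampus and 0.75 in cortex. Members at an unadjusted p under 0.05 then numbered 16 in hippocampus and 17 in cortex. The shares of all genes in these runs and over the 6 pairs are not given here. The counts of 7, 16 and 17 members thus have no background beside them. In hippocampus, r without those 2 libraries was -0.24 for Dusp5 and 0.44 for Dusp4. With one library left out, r with Fos ran from -0.20 to 0.26 for Dusp5 and from -0.37 to 0.30 for Dusp4 in hippocampus, and from -0.14 to 0.25 for Errfi1 and from -0.10 to 0.42 for Maff in cortex. The cause of these moves was not tested beyond the smaller number of libraries. With 5 libraries a group and a spread of this size, differences like those of Fos or Arc were not called here. The size of difference that could have been called at this spread was not tested.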

Other observations

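Other lists also deviated together between same-numbered libraries of the 2 regions. The 5 red blood cell markers had a median r of 0.78, with Hbb-bs at 0.84, and their sum was highest in library 5 of Ncs1-/- hippocampus (101 CPM) and library 1 of Ncs1-/- cortex (133.8 CPM), and in library 1 of Ncs1+/+ hippocampus (150.3 CPM) and of Ncs1+/+ cortex (174 CPM). The 15 glucocorticoid response genes had a median r of 0.67, led by Plin4 at 0.86, and the 11 heat shock genes one of 0.60, led by Hspa1a at 0.85. The median deviation of the glucocorticoid genes in Ncs1-/- libraries 1 to 5 was -0.09, -0.30, -0.15, -0.03 and 0.15 in hippocampus and -0.26, 0.31, -0.08, -0.04 and 0.08 in cortex, and in Ncs1+/+ libraries 1 to 5 -0.26, -0.25, 0.14, 0.29 and 0.39 in hippocampus and -0.24, -0.44, 0.01, 0.32 and 0.34 in cortex on the log2 scale. The oligodendrocyte markers had a median r of 0.60, and those of choroid plexus and striatal projection neurons -0.01 and -0.10. The part of blood, stress or dissection in the immediate early levels was not tested.

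On no other list did a gene pass between genotypes in either region by edgeR's quasi-likelihood test. Genes with the smallest p of their list had these log2 fold changes of Ncs1-/- over Ncs1+/+ in hippocampus: Hspa8 at -0.06 (heat shock genes), Mt2 at -0.29 (glucocorticoid response genes), Npy at -0.26 (interneuron markers), Nptxr at -0.21 (excitatory neuron markers), Acsbg1 at -0.14 (astrocyte markers) and C1qc at -0.20 (microglia markers). Further ones in hippocampus were Slco1a4 at 0.17 (endothelial and pericyte markers), Dcn at -0.25 (meningeal fibroblast markers), Hba-a1 at -0.26 (red blood cell markers), Rgs9 at 0.24 (striatal neuron markers), Calb1 at -0.14 (dentate granule cell markers) and Sostdc1 at 0.70 (choroid plexus markers). The genes with the smallest p per list had these log2 fold changes of Ncs1-/- over Ncs1+/+ in cortex: Hspa8 at -0.18 (heat shock genes), Per1 at 0.36 (glucocorticoid response genes), Npy at -0.20 (interneuron markers), Nrgn at -0.25 (excitatory neuron markers), Acsbg1 at -0.16 (astrocyte markers), C1qb at -0.22 (microglia markers), Mobp at 0.13 (oligodendrocyte markers). Further ones in cortex were Flt1 at 0.09 (endothelial and pericyte markers), Col1a2 at 0.47 (meningeal fibroblast markers), Hba-a1 at 0.14 (red blood cell markers), Ido1 at 0.48 (striatal neuron markers), Calb1 at -0.09 (dentate granule cell markers) and Ttr at 6.21 (choroid plexus markers). The adjusted p of those named was 0.991 for each in hippocampus and 0.192 to 0.781 in cortex.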
